A study of Mus musculus with 9 samples.

Results

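The collagen chain genes of the mouse encode the alpha chains that fold together into the triple helices of the collagens, and 44 of them were measured here. They were chosen by symbol, as all genes named Col followed by a type number, the letter a and a chain number, and made up 44 of the 19938 genes represented on the arrays. The RefSeq gene table holds 44 genes with such symbols, and all of them had a probe set with a single symbol. By class there were 11 fibrillar chains, 9 chains of fibril-associated collagens with interrupted triple helices (FACIT), 3 network-forming chains, 6 basement membrane chains of type IV and 15 others. The others were 6 type VI chains of beaded filaments, 2 multiplexins, 4 transmembrane collagens and the single genes Col7a1, Col26a1 and Col28a1.

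Collagen chains are made in the endoplasmic reticulum, where prolines and lysines are hydroxylated and 3 chains fold into a helix that is secreted, trimmed and cross-linked outside the cell. Fibrillar collagens carry tension, FACIT collagens coat the fibrils, type IV collagen forms the sheet of basement membranes and type VI collagen links cells to the surrounding matrix. In the liver the fibrillar chains are made mainly by stellate cells, portal fibroblasts and other stromal cells, and their excess is the scar of fibrosis.

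The RNA came from liver cells that bore neither CD45 nor Ter119, surface markers of blood cells, and that were sorted for the red fluorescence of a DsRed reporter of Cxcl12, the gene of a chemokine made by stromal cells. The mice were C57BL/6 and all carried the reporter on 1 allele of Cxcl12 (Cxcl12DsRed/+), so every group shared this allele and there was no group without it. Livers were taken on embryonic day E15.5, when the organ forms blood, and on postnatal days 5 (P5) and 10 (P10), with 3 arrays per stage. Age within a stage, sex, litter and the number of mice per array are not given in the sources used here, and nothing says that the 3 replicates of a stage came from separate animals, so p-values measure the spread between arrays.

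Values are log2 signals of probe sets after robust multi-array averaging (RMA). A difference is the later minus the earlier stage on this log2 scale, given with its standard error from limma, and is called when its Benjamini-Hochberg adjusted p over all genes is under 0.05. Probe sets differ in brightness, so levels are compared between arrays and never between genes. The median over genes lay between 6.69 and 6.82 on the 9 arrays, and the Pearson correlation of 2 arrays across genes (genes are no independent replicates) was 0.986 to 0.995 within a stage and 0.875 to 0.985 across stages. Cxcl12, the gene of the sort, had mean log2 signals of 10.98 ± 0.32, 10.17 ± 0.19 and 10.13 ± 0.16 at E15.5, P5 and P10 (SD, n = 3 each). It was itself called lower than at E15.5 in limma, by -0.81 ± 0.17 at P5 (adjusted p = 0.00555) and by -0.85 ± 0.17 at P10 (adjusted p = 0.00381). The mean log2 signal over 8 macrophage markers was 5.30 to 5.45 on the 9 arrays, with 1 higher and 1 lower at P5 and 1 lower at P10 against E15.5.

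Arrays at P5 differed among themselves. The mean over 10 sinusoidal endothelial markers was 6.31, 7.37 and 7.84 on P5 arrays 1, 2 and 3, against 6.46 to 6.71 on the E15.5 arrays. P5 array 3 was also the lowest of the P5 arrays, ties included, for all 24 collagen chain genes that were called in no comparison. The same array was lowest for most called collagen genes, such as Col1a1 (9.15), Col3a1 (9.64) and Col6a3 (8.05). This was not so for Col14a1, Col15a1 or Col18a1. Counts at P5 are therefore also given with array 1 as the sole P5 array, a setting chosen after seeing the data, in which that array is assumed to vary like those of the other stages. Standard errors of P5 differences are larger with 1 array. A call can thus be lost there though the difference does not move, as for Col4a2 at P5 (-0.30 in both settings).

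The collagen chain genes changed in a subset and mostly downward. At P5 against E15.5, 16 of the 44 were lower and 3 were higher, which is 43.2% called, where 35.6% of all genes were called (17.9% higher and 17.7% lower). At P10 against E15.5, 16 were lower and 1 was higher, 38.6% called, where 38.7% of all genes were called (20.1% higher and 18.6% lower). At P10 against P5, 6 were lower and none was higher, 13.6% called, where 5.65% of all genes were called (2.76% higher and 2.89% lower). In limma, 0 collagen genes were higher at P10 against P5 at an unadjusted p under 0.05 too, and 0 passed upward in any of the 20 alternatives. Counts moved by more than 1.5 times without P5 array 3 (5 higher at P5) and without P10 array 2 (3 lower at P10 against P5), and the single gene higher at P10 became 0 or 2 without E15.5 array 2, P5 array 1 or any of the P10 arrays.

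The share of collagen genes called was thus close to that of all genes at P10 against E15.5, while lower calls outnumbered higher ones among collagens and the directions were nearly even over all genes. Both postnatal comparisons share the E15.5 arrays, so the calls of each are given side by side and are not separate evidence. At P10, 12 of the 44 were called and 2-fold or more lower than at E15.5, where 8.21% of all genes were, and at P5, 6 were, where 6.8% of all genes were. The median difference of the 44 genes was -0.036 at P5 and -0.119 at P10 against E15.5, beside 0.029 and 0.024 over all genes, and -0.133 at P10 against P5, beside -0.002. With array 1 as the sole P5 array, 10 genes were lower at P5. All 3 P5 arrays lay below all 3 E15.5 arrays for 16 collagen genes and above for 3, where this held for 21.1% and 24.1% of all genes (45.2% in either direction). For P10 against E15.5 this was so for 19 and 4 collagen genes, where 23.8% and 27.9% of all genes did so (51.7% in either direction). For P10 against P5 it was 14 below and 0 above, where 9.66% and 10.6% of all genes did so (20.2% in either direction). A total of 11 genes had all E15.5 arrays above all P5 arrays and all P5 arrays above all P10 arrays, an order that 4.53% of all genes showed, and 0 had the reverse order, which 5.59% of all genes showed.

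**Figure D1:**
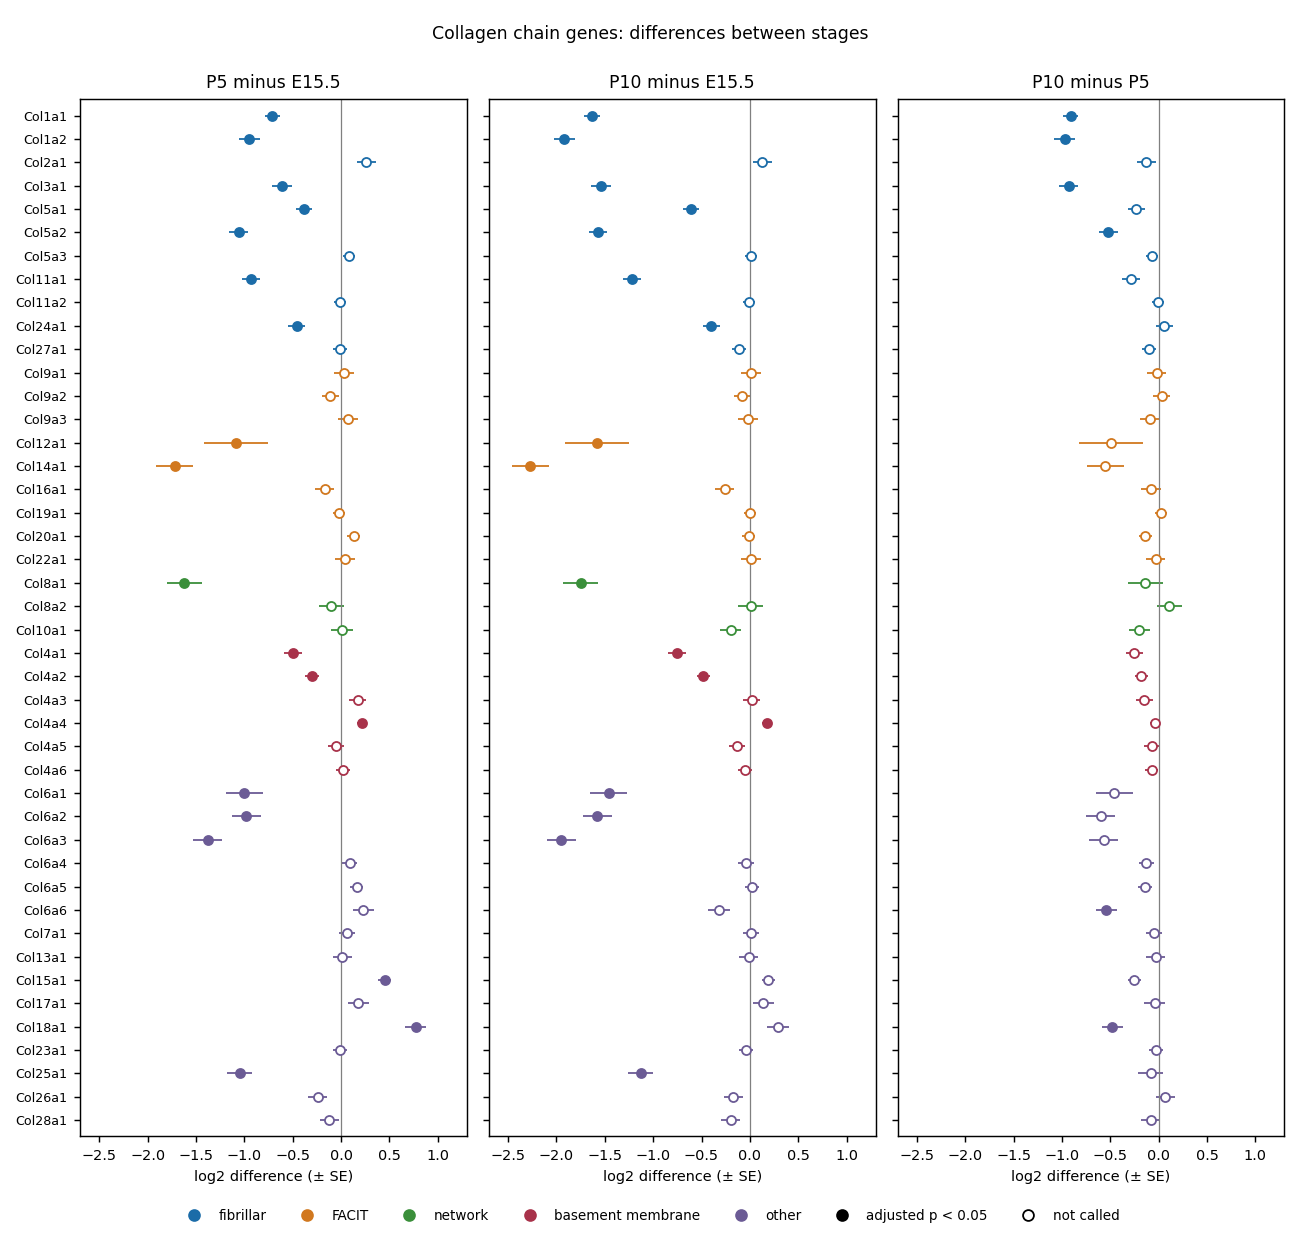
Differences of the 44 collagen chain genes between stages on the log2 scale, with standard errors as bars (n = 3 arrays per stage), coloured by class; filled points were called and open points were not. The 16 genes lower at P5 lie left of the line in the first and in the middle panel, most of them farther left in the middle one, while the largest rise is that of Col18a1 at P5 (0.77).

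The fibrillar class had the most genes lower. Of its 11, 7 (63.6%) were lower at P5 and at P10 than at E15.5, where 17.7% and 18.6% of all genes were lower, and 4 of these (36.4%) were lower again at P10 against P5, where 2.89% of all genes were. The counts of the other classes and lists below stand beside the same shares. The class median differed by -0.46 at P5 and -0.61 at P10 from E15.5. Beside these, the mean over 11 hepatic stellate markers was 9.32 to 9.5 at E15.5, 7.69 to 8.04 at P5 and 7.52 to 7.67 at P10, and 10 of the 11 were called lower at each postnatal stage. The part of these markers in the collagen differences was not tested. In RNA of sorted cells measured in bulk, fewer cells of a type and less RNA per cell cannot be told apart.

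Col1a1 encodes the more abundant chain of type I collagen, the main collagen of tendon, bone and scar. Its log2 signals were 10.05, 9.92 and 10.04 at E15.5, 9.29, 9.43 and 9.15 at P5 and 8.37, 8.33 and 8.42 at P10. The stages stood in separate steps, with no overlap. Col1a1 differed by -0.71 ± 0.08 at P5 (adjusted p = 0.000171) and by -1.63 ± 0.08 at P10 (adjusted p = 9.57e-07) from E15.5, a level 3.09-fold lower at P10. P10 minus P5 was -0.91 ± 0.08 (adjusted p = 0.000819).

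Col1a2, the partner chain of type I, ran in parallel. Its signals were 10.28, 10.13 and 10.12 at E15.5, 9.40, 9.23 and 9.06 at P5 and 8.06, 8.32 and 8.39 at P10. Every P10 array was below every P5 array, and every P5 array below every E15.5 array. The differences from E15.5 were -0.95 ± 0.11 at P5 (adjusted p = 0.000257) and -1.92 ± 0.11 at P10 (adjusted p = 2.91e-06), and P10 minus P5 was -0.97 ± 0.11 (adjusted p = 0.00296).

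Col3a1 encodes the chain of type III collagen, found with type I in fine reticular fibres. Its signals were 10.48, 10.34 and 10.55 at E15.5, 9.92, 9.96 and 9.64 at P5 and 8.79, 9.01 and 8.93 at P10. The steps again did not overlap, and the later step was the wider. Col3a1 differed by -0.61 ± 0.10 at P5 (adjusted p = 0.00182) and by -1.54 ± 0.10 at P10 (adjusted p = 6.1e-06) from E15.5, and P10 minus P5 was -0.93 ± 0.10 (adjusted p = 0.00246). The difference between the intervals, P10 minus P5 less P5 minus E15.5, was -0.32 ± 0.18 for Col3a1 (adjusted p = 0.303), -0.20 ± 0.14 for Col1a1 (adjusted p = 0.401) and -0.03 ± 0.20 for Col1a2 (adjusted p = 0.952), so neither interval was called the larger for these genes.

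Type V collagen, whose chains start and limit the growth of type I fibrils, split by chain. Col5a2 had signals of 8.30, 8.31 and 8.5 at E15.5, 7.35, 7.35 and 7.24 at P5 and 6.97, 6.63 and 6.79 at P10. It differed by -1.06 ± 0.098 at P5 (adjusted p = 5.63e-05) and by -1.57 ± 0.098 at P10 (adjusted p = 3.87e-06) from E15.5. The stages did not overlap, and P10 minus P5 was -0.52 ± 0.098 (adjusted p = 0.0217). That call was lost in 7 of the 20 alternatives, among them the omission of P5 array 1 or 2 (-0.50 in both) and of P10 array 2 or 3 (-0.43 and -0.51), with adjusted p of 0.0632 to 0.0676.

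Col5a1 had signals of 8.33, 8.41 and 8.35 at E15.5, 8.12, 8.0 and 7.83 at P5 and 7.69, 7.72 and 7.85 at P10. The E15.5 arrays were above all others, while P5 and P10 overlapped. Its differences from E15.5 were -0.38 ± 0.084 at P5 (adjusted p = 0.00758) and -0.61 ± 0.084 at P10 (adjusted p = 0.000433). With array 1 as the sole P5 array, the P5 difference was -0.24 and was not called (adjusted p = 0.0954). Col5a3, the third chain gene of the type, had mean signals of 7.09 ± 0.029, 7.17 ± 0.085 and 7.10 ± 0.035 at E15.5, P5 and P10 (SD, n = 3 each) and was called in no comparison.

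Type XI collagen, a partner of the cartilage fibril, split in the same manner. Col11a1 had signals of 7.98, 7.83 and 8.14 at E15.5, 7.09, 7.09 and 6.98 at P5 and 6.88, 6.65 and 6.77 at P10. The largest gap lay between E15.5 and P5. The differences from E15.5 were -0.93 ± 0.093 at P5 (adjusted p = 9.11e-05) and -1.22 ± 0.093 at P10 (adjusted p = 1.33e-05), and P10 minus P5 was -0.29 ± 0.093 (adjusted p = 0.134). Col11a2 had means of 7.13 ± 0.041, 7.12 ± 0.094 and 7.12 ± 0.018 at E15.5, P5 and P10 (SD, n = 3 each).

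Col24a1, a minor fibrillar chain best known from bone, had signals of 6.66, 6.83 and 7.01 at E15.5, 6.42, 6.35 and 6.34 at P5 and 6.47, 6.45 and 6.38 at P10. Its postnatal arrays overlapped each other and all lay below E15.5. It differed by -0.46 ± 0.087 at P5 (adjusted p = 0.00336) and by -0.40 ± 0.087 at P10 (adjusted p = 0.00624) from E15.5, and P10 minus P5 was 0.06 ± 0.087 (adjusted p = 0.814). With array 1 as the sole P5 array its P5 difference was -0.41 and was not called (adjusted p = 0.0679). The remaining fibrillar genes, Col2a1 of cartilage and Col27a1, were called in no comparison. Col2a1 had signals of 7.49, 7.54 and 7.41 at E15.5, 7.82, 7.90 and 7.51 at P5 and 7.62, 7.62 and 7.59 at P10. Its P5 difference of 0.26 ± 0.098 had the lowest adjusted p of all uncalled members (0.0736) and passed in 4 alternatives.

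**Figure D2:**
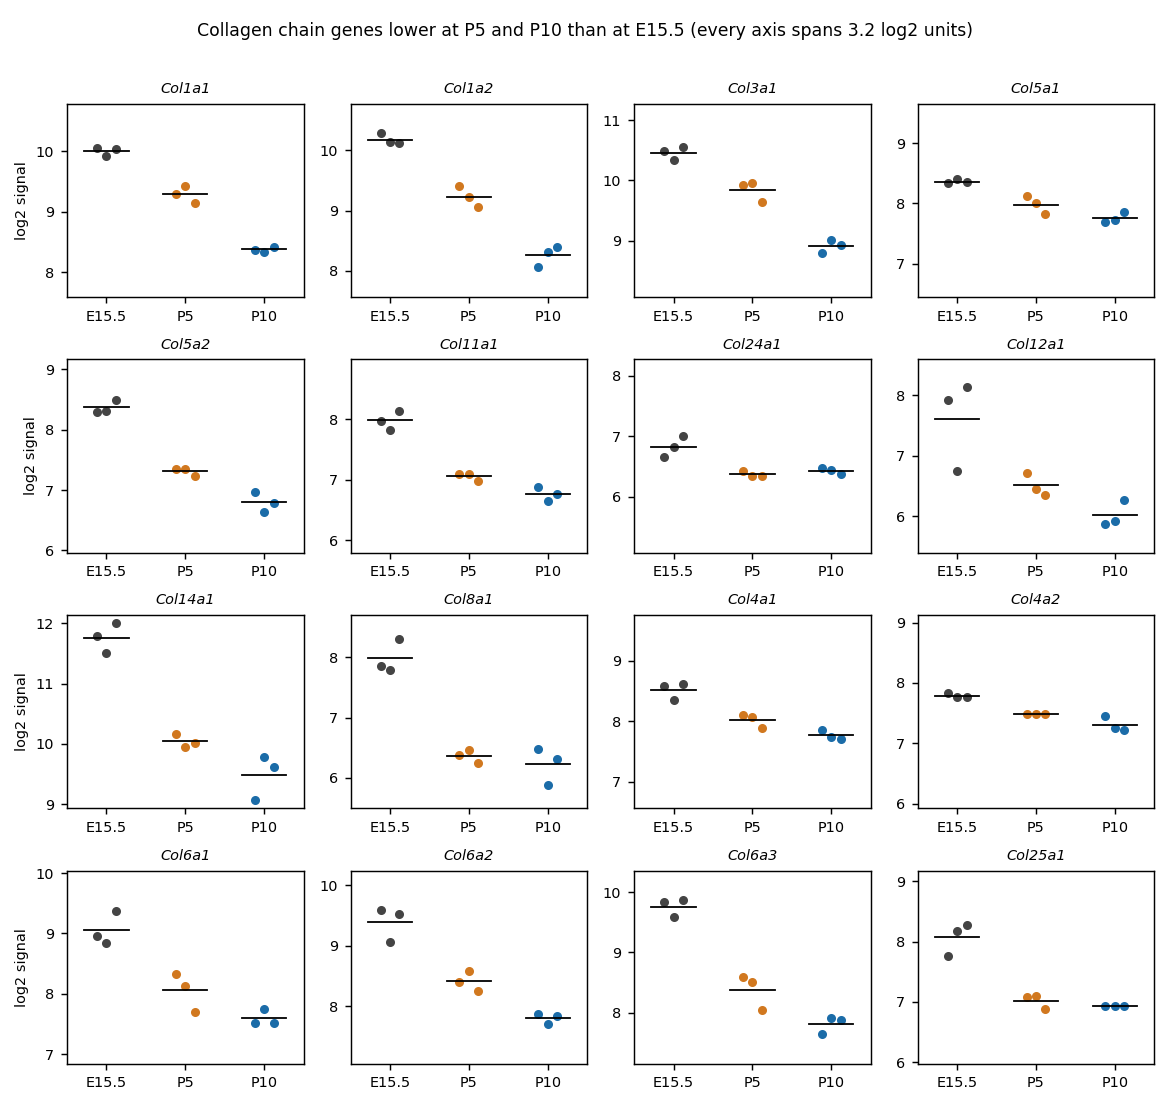
Log2 signal on each array (points) and mean of each stage (bars, n = 3) for the 16 collagen chain genes lower at P5 and at P10 than at E15.5; every axis spans the same number of log2 units. Type I and III genes step down at each stage, whereas Col8a1, Col25a1 and Col24a1 have nearly all or all of the fall by P5 (Col8a1 means are 7.98, 6.37 and 6.23); the others lie between.

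Among the FACIT chains, 2 of 9 (22.2%) were lower at both postnatal stages, a share near the 17.7% and 18.6% of all genes, and the others were not called. Col14a1, whose product binds type I fibrils, had signals of 11.79, 11.50 and 12.00 at E15.5, 10.16, 9.95 and 10.01 at P5 and 9.07, 9.79 and 9.61 at P10. It had the widest range of the 44 genes over the 9 arrays, 2.93 log2 units, and its stages did not overlap. It differed by -1.72 ± 0.19 at P5 (adjusted p = 0.000169) and by -2.27 ± 0.19 at P10 (adjusted p = 2.38e-05) from E15.5, a level 4.83-fold lower at P10. P10 minus P5 was -0.55 ± 0.19 (adjusted p = 0.163).

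Col12a1, which also decorates type I fibrils, had signals of 7.92, 6.74 and 8.13 at E15.5, 6.72, 6.45 and 6.35 at P5 and 5.86, 5.92 and 6.27 at P10. E15.5 array 2 stood apart from the other E15.5 arrays and only just above the highest P5 array. The differences from E15.5 were -1.09 ± 0.33 at P5 (adjusted p = 0.0314) and -1.58 ± 0.33 at P10 (adjusted p = 0.00473). The P5 call was lost without E15.5 array 1 (-0.92, adjusted p = 0.108), E15.5 array 3 (-0.82, adjusted p = 0.104), P5 array 2 (-1.06, adjusted p = 0.0784) or P5 array 3 (-1.01, adjusted p = 0.0832). The 7 uncalled FACIT genes were Col9a1, Col9a2 and Col9a3 of cartilage, Col16a1, Col19a1, Col20a1 and Col22a1, and their P10 minus E15.5 differences lay between the -0.26 ± 0.10 of Col16a1 and 0.01 ± 0.10 for Col9a1 and Col22a1.

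Of the 3 network chains, only Col8a1, which belongs to the short-chain collagen of vessel walls, was called. Its signals were 7.85, 7.79 and 8.31 at E15.5, 6.38, 6.47 and 6.25 at P5 and 6.48, 5.89 and 6.32 at P10. The postnatal stages overlapped, and both lay more than a log2 unit below E15.5. Col8a1 differed by -1.62 ± 0.18 at P5 (adjusted p = 0.000166) and by -1.75 ± 0.18 at P10 (adjusted p = 7.61e-05) from E15.5, while P10 minus P5 was -0.14 ± 0.18 (adjusted p = 0.794). Its partner Col8a2 had means of 6.68 ± 0.082, 6.58 ± 0.25 and 6.69 ± 0.18, and Col10a1 of growth plate cartilage had 6.13 ± 0.18, 6.14 ± 0.10 and 5.93 ± 0.14, at E15.5, P5 and P10 (SD, n = 3 each). Neither was called.

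Of the 6 type IV chains, Col4a1 and Col4a2, the pair found in nearly all basement membranes, were lower at both postnatal stages. Col4a1 had signals of 8.59, 8.36 and 8.61 at E15.5, 8.11, 8.07 and 7.89 at P5 and 7.86, 7.74 and 7.71 at P10. Col4a2 had 7.83, 7.77 and 7.77 at E15.5, 7.49 on each P5 array and 7.45, 7.26 and 7.22 at P10. Both genes stepped down without overlap, and the P5 values of Col4a2 were nearly tied (SD 0.00017). Col4a1 differed by -0.50 ± 0.092 at P5 (adjusted p = 0.00297) and by -0.75 ± 0.092 at P10 (adjusted p = 0.00023), and Col4a2 by -0.30 ± 0.068 (adjusted p = 0.00863) and -0.48 ± 0.068 (adjusted p = 0.000531). With array 1 as the sole P5 array the P5 differences were -0.41 for Col4a1 (adjusted p = 0.0526) and -0.30 for Col4a2 (adjusted p = 0.082), and centring on ribosomal protein genes also ended the Col4a2 call at P5 (-0.24, adjusted p = 0.0621).

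Col4a4, a chain of kidney and lung basement membranes, went the other way by a small amount. Its signals were 6.80, 6.77 and 6.74 at E15.5, 6.99, 7.04 and 6.94 at P5 and 6.97, 6.94 and 6.94 at P10. All postnatal arrays lay above all E15.5 arrays. It was higher by 0.22 ± 0.052 at P5 (adjusted p = 0.00935) and by 0.18 ± 0.052 at P10 (adjusted p = 0.0218). The P5 call was lost with array 1 as the sole P5 array (0.23, adjusted p = 0.051). The P10 call was lost in 7 of 20 alternatives, among them the omission of E15.5 array 2 or 3 or of any P10 array (0.17 to 0.19, adjusted p = 0.0517 to 0.0672). Col4a3, Col4a5 and Col4a6 were not called, with P10 minus E15.5 differences of 0.02 ± 0.089, -0.13 ± 0.083 and -0.05 ± 0.068.

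**Figure D3:**
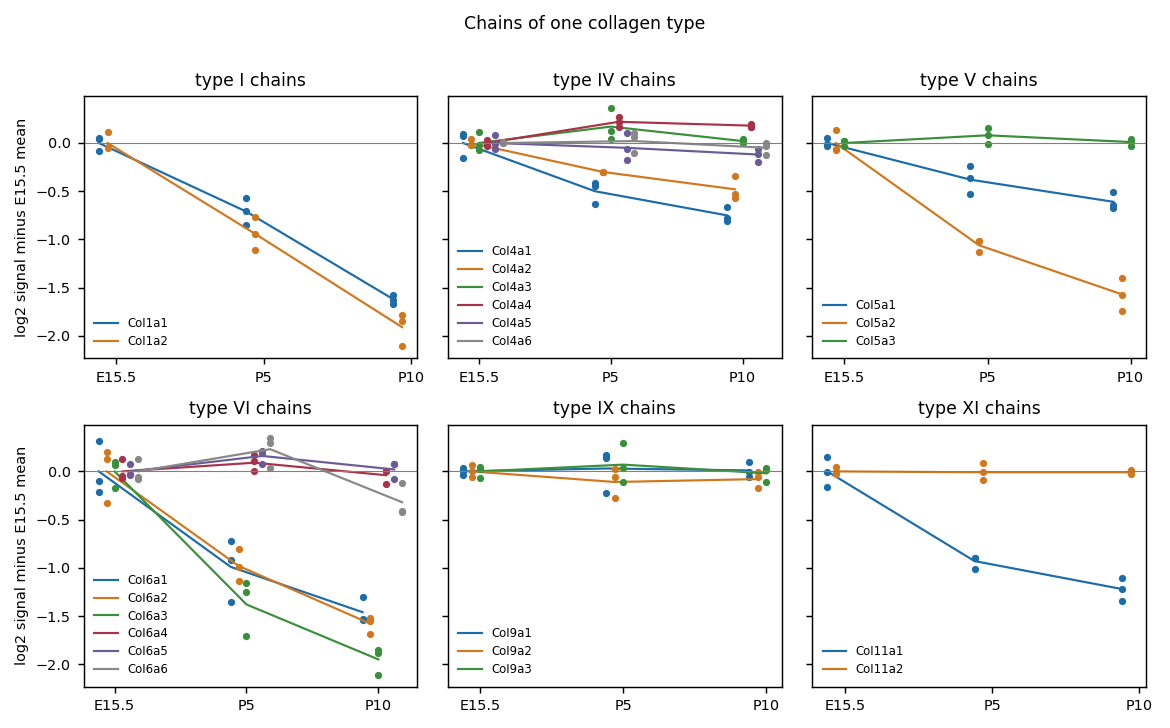
Log2 signal minus the E15.5 mean of the same gene, for the chains of 6 collagen types on each array (points) with lines through the stage means. Chains of type I fall together, while Col5a3, Col11a2, Col4a3, Col4a5 and Col4a6 of types V, XI and IV, and Col6a4 and Col6a5 of type VI, were called in no comparison; Col4a4 lies slightly above 0 at P5 and P10 (differences 0.22 and 0.18), and the P10 arrays of Col6a6 lie below its other arrays.

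Type VI collagen split into a trio that was lower at both postnatal stages than at E15.5 and a trio that was not called against E15.5. The Col6a1, Col6a2 and Col6a3 products assemble into the common type VI microfilament. Col6a1 had signals of 8.95, 8.84 and 9.37 at E15.5, 8.33, 8.13 and 7.70 at P5 and 7.52, 7.75 and 7.51 at P10. Col6a2 had 9.59, 9.06 and 9.52 at E15.5, 8.40, 8.59 and 8.25 at P5 and 7.87, 7.70 and 7.84 at P10. Col6a3 had 9.83, 9.59 and 9.86 at E15.5, 8.60, 8.51 and 8.05 at P5 and 7.65, 7.91 and 7.88 at P10. In all of the trio the E15.5 arrays were above the P5 arrays, and P5 overlapped P10 for Col6a1 only, on P5 array 3.

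Col6a1 differed by -1.0 ± 0.19 at P5 (adjusted p = 0.00303) and by -1.46 ± 0.19 at P10 (adjusted p = 0.000276) from E15.5. Col6a2 differed by -0.98 ± 0.15 (adjusted p = 0.000919) and -1.58 ± 0.15 (adjusted p = 4.03e-05), and Col6a3 by -1.38 ± 0.15 (adjusted p = 0.000153) and -1.95 ± 0.15 (adjusted p = 1.44e-05). At P10 against P5 none of these was called, with adjusted p of 0.228, 0.0531 and 0.0724 for Col6a1, Col6a2 and Col6a3. Without P5 array 3, Col6a2 (-0.69, adjusted p = 0.0495) and Col6a3 (-0.74, adjusted p = 0.0123) passed, as did Col6a2 without E15.5 array 2 (-0.60, adjusted p = 0.0191). With array 1 as the sole P5 array, the P5 difference of Col6a1 was -0.72 and was not called (adjusted p = 0.0502).

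The other trio are the later described type VI chains. Col6a6 had signals of 7.91, 7.89 and 8.10 at E15.5, 8.26, 8.32 and 8.01 at P5 and 7.55, 7.56 and 7.85 at P10. Its P10 arrays lay below all others, while E15.5 and P5 overlapped. P10 minus P5 was -0.54 ± 0.11 (adjusted p = 0.0325), and its second probe set gave -0.36 for the same difference (adjusted p = 0.326). The call was lost in 12 of 20 alternatives, among them the omission of array 1 or 2 of any stage (-0.54 to -0.48, adjusted p = 0.0522 to 0.118). Against E15.5 the P10 difference was -0.32 ± 0.11 (adjusted p = 0.0602), and it was called without P5 array 3 (-0.32, adjusted p = 0.0379) or P10 array 3 (-0.41, adjusted p = 0.0244). Col6a4 and Col6a5 were not called, with P10 minus P5 of -0.13 ± 0.078 and -0.14 ± 0.07. The second probe set of Col6a5 had 6.98 on P5 array 1 and 5.28 to 5.96 on the other 8 arrays.

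Of the transmembrane collagens, only Col25a1, known from neurons and from the innervation of muscle, was called. Its signals were 7.76, 8.17 and 8.27 at E15.5, 7.08, 7.09 and 6.88 at P5 and 6.94, 6.94 and 6.93 at P10. The postnatal stages overlapped, and the P10 arrays were nearly tied. Col25a1 differed by -1.05 ± 0.13 at P5 (adjusted p = 0.000257) and by -1.13 ± 0.13 at P10 (adjusted p = 0.000126) from E15.5. The mean over 4 neural and Schwann cell markers was 6.01 to 6.19 at E15.5, 6.03 to 6.25 at P5 and 5.98 to 6.00 at P10, and its members went both ways. Ngfr differed by -0.47 at P5 (adjusted p = 0.0126) and -0.68 at P10 (adjusted p = 0.00164) and Sox10 by 0.27 at P5 (adjusted p = 0.0405) from E15.5, and no other was called. The hepatic stellate list also holds Ngfr. Col13a1, Col17a1 and Col23a1 were not called and had P10 minus E15.5 differences of -0.01 ± 0.098, 0.14 ± 0.11 and -0.04 ± 0.075. Col7a1 of skin anchoring fibrils (0.01 ± 0.085), Col26a1 (-0.17 ± 0.097) and Col28a1 (-0.20 ± 0.098) were not called either.

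The multiplexins, collagens of the basement membrane zone of vessels and epithelia, were higher at P5. Col18a1, whose product is cleaved to endostatin, an inhibitor of vessel growth, had signals of 7.68, 7.52 and 7.59 at E15.5, 8.65, 8.17 and 8.28 at P5 and 7.88 on each P10 array. The P5 arrays were above all others and the tied P10 arrays lay between. Col18a1 was higher by 0.77 ± 0.11 at P5 than at E15.5 (adjusted p = 0.000898), a level 1.71-fold higher, and the P10 difference from E15.5 was 0.29 ± 0.11 (adjusted p = 0.084). P10 minus P5 was -0.48 ± 0.11 (adjusted p = 0.0498), and the call was lost in 14 of 20 alternatives, among them the omission of P5 array 3 (-0.52) or of any E15.5 or P10 array (-0.48), with adjusted p of 0.061 to 0.138. The P10 difference from E15.5 was called in 5 of 20 alternatives. Among them were the omission of P5 array 1 (0.29, adjusted p = 0.00856) and centring on the median of all genes (0.38, adjusted p = 0.0212).

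Col15a1 had signals of 7.09, 6.93 and 7.12 at E15.5, 7.45, 7.56 and 7.47 at P5 and 7.24, 7.23 and 7.24 at P10. The stages did not overlap, with P10 again between the others. It was higher by 0.45 ± 0.067 at P5 than at E15.5 (adjusted p = 0.000951), and the P10 difference from E15.5 was 0.19 ± 0.067 (adjusted p = 0.0518). That difference passed in 5 of 20 alternatives, among them without E15.5 array 3 (0.23, adjusted p = 0.0456) and after centring on the median of all genes (0.29, adjusted p = 0.00852). P10 minus P5 was -0.25 ± 0.067 (adjusted p = 0.0725), and without E15.5 array 2 it was called (adjusted p = 0.0491).

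The mesothelial, cholangiocyte, sinusoidal endothelial, hepatocyte, chondrocyte and neural and Schwann marker lists had their highest mean at P5 as well. Endothelial means were 6.56, 7.17 and 6.64 and hepatocyte means 11.09, 12.52 and 12.39 at E15.5, P5 and P10. The mesothelial and cholangiocyte lists share Krt19, which was higher by 1.51 at P5 than at E15.5. The mean over 8 mesothelial markers was 7.92 to 8.06 at E15.5, 8.90 to 9.17 at P5 and 7.07 to 7.34 at P10, with 6 of 8 called higher and 1 lower at P5, and 1 higher and 5 lower at P10, against E15.5. The P10 arrays of both multiplexin genes lay above all E15.5 arrays, though neither P10 difference from E15.5 was called except in 5 of 20 alternatives for each gene. The mean over 5 cholangiocyte markers was 6.24 to 6.52 at E15.5, 7.20 to 7.36 at P5 and 6.50 to 6.55 at P10, with 3 higher and 0 lower at P5 and 2 higher and 0 lower at P10 against E15.5. Of the P5 arrays, array 1 had the highest signal of Col18a1 (8.65), the lowest of Col15a1 (7.45) and the lowest mesothelial and endothelial means (8.90 and 6.31), and the highest cholangiocyte mean (7.36). The part of these markers in the rise of the multiplexins was not tested.

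**Figure D4:**
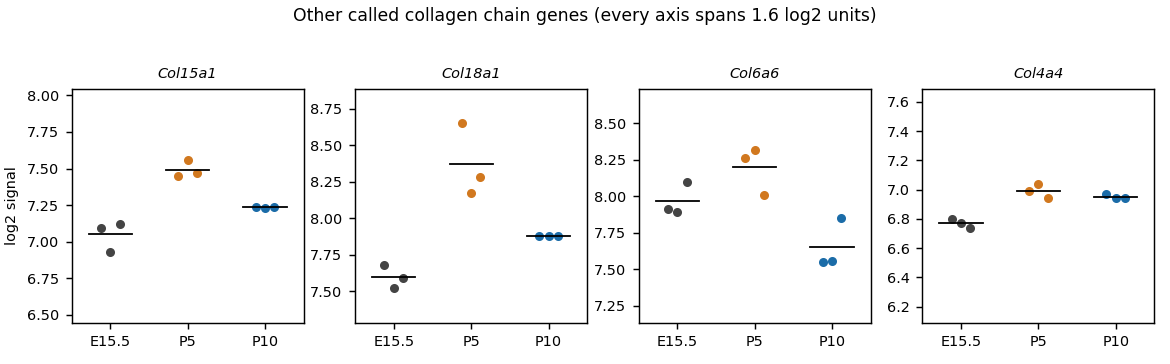
Log2 signal on each array (points) and stage mean (bars, n = 3) of the 4 called genes that do not fall at both postnatal stages, on axes of equal span. Col15a1 and Col18a1 peak at P5 (means 7.49 and 8.37), Col6a6 is lowest at P10 (7.65) and Col4a4 is higher at both postnatal stages (6.99 and 6.95).

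Whether the change per interval differed was tested as P10 minus P5 less P5 minus E15.5. Of the 44 genes, 8 were called (18.2%), where 16.6% of all genes were called (7.93% positive and 8.7% negative). The value was negative for Col18a1, Col15a1 and Col6a6, whose mean was highest at P5, though P10 minus P5 was not called for Col15a1. It was positive for Col8a1, Col14a1, Col25a1, Col11a1 and Col24a1, whose larger difference lay between E15.5 and P5. The intervals share the P5 arrays and differ in length, and leaving out a P5 array left 1 or 2 of the 5 positive calls.

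The remaining 24 of the 44 genes were called in no comparison. Their signals lay between 5.64 and 7.99 on the 9 arrays, and the range of a gene over the arrays was 0.17 to 0.56 log2 units, with a median of 0.37. No detection call was used, so whether these genes were above background is not given, and a difference that was not called is not shown to be absent. Of the 24, 19 had exactly equal values on some arrays, and 3 had an unadjusted p under 0.05 in some comparison. In alternative settings 4 of them gained a call, namely Col2a1, Col16a1, Col17a1 and Col26a1, and leaving out P5 array 3 did this for Col2a1 (0.38, adjusted p = 0.00288) and Col17a1 (0.29, adjusted p = 0.0335) at P5 and for Col16a1 at P10 (-0.26, adjusted p = 0.0477). Of 8 chondrocyte markers, Col2a1 among them, 1 was called at P5, the gene of the transcription factor Sox9 (1.85 ± 0.15 from E15.5), which the cholangiocyte list also holds.

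Promoter sequence is shown for collagen genes that moved together, to set the letters of their start regions side by side. The RefSeq promoter table, build GRCm38.p6, holds 38 start regions of 35 of the 44 genes, and the windows run from 150 bases before to 30 bases after the start. Col1a1, Col2a1, Col4a3, Col5a2, Col9a3, Col12a1, Col14a1, Col22a1 and Col26a1 are named only. Capitals mark the letters CCAAT, the GC box letters GGGCGG or the letters TATAAA on either strand, so that CCAAT on the other strand reads ATTGG and the GC box reads CCGCCC there. In the windows printed, no matches of different motifs overlapped. For genes that were lower at both postnatal stages the lines give the coding strand:
Col1a2 (chr6:4505468-4505647, plus strand): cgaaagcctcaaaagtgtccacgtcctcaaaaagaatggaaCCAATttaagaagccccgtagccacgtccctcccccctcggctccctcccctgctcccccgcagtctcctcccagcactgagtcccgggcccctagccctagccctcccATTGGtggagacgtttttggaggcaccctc
Col3a1 (chr1:45311388-45311567, plus strand): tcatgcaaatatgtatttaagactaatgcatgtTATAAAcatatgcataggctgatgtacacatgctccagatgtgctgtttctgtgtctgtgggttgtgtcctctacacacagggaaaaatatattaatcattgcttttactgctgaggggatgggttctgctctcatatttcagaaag
Col11a1 (chr3:114030390-114030569, plus strand): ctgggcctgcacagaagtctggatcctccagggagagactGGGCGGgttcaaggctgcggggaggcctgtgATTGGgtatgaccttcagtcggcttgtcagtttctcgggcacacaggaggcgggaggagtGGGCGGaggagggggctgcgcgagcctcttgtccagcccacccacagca
Col6a1 (chr10:76726015-76726194, minus strand): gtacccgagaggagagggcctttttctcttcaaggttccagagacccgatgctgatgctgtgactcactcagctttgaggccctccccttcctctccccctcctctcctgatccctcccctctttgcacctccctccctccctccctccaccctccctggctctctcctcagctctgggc
Col6a3 (chr1:90843942-90844121, minus strand): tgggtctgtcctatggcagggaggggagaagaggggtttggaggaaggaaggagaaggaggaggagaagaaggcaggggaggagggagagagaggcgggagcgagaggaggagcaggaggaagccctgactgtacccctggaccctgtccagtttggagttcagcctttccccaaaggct

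The window of Col1a2 holds CCAAT letters at 2 places, that of Col11a1 holds CCAAT and GC box letters, and Col3a1 holds TATAAA letters. Of the type VI trio, Col6a1 and Col6a3 hold none of the motifs, and 1 of the 2 windows of Col6a2, which are not printed, holds GC box letters. The windows of Col4a1 and Col4a2, also not printed, both hold CCAAT and GC box letters. The motif CCAAT stood in 4 of 13 windows of genes lower at P10 (30.8%), in 4 of 25 windows of the other collagen genes (16%) and in 27% of all 32851 promoter windows. The GC box stood in 7 of 13 (53.8%), 14 of 25 (56%) and 31% of all windows, and TATAAA in 1 of 13 (7.69%), 3 of 25 (12%) and 8.37% of all windows. A match of letters is not a binding site, and these shares are descriptions with no test.

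The genes higher at P5, Col15a1 and Col18a1, are shown for the same reason, and Col18a1 has 2 start regions in the table:
Col15a1 (chr4:47207862-47208041, plus strand): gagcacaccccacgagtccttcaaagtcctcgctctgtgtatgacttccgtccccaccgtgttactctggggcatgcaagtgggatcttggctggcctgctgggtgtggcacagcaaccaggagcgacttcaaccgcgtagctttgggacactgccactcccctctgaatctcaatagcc
Col18a1 (chr10:77113676-77113855, minus strand): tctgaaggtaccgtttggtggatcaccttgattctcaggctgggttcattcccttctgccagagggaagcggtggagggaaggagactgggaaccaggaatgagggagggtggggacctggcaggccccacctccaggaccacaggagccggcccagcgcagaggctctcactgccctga
Col18a1 (chr10:77166501-77166680, minus strand): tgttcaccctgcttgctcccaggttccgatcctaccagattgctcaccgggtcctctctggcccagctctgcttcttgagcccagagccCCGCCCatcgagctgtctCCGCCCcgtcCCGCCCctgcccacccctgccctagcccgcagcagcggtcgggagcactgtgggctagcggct

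The windows of Col15a1 and of the Col18a1 start at the lower coordinate hold none of the 3 motifs, and the other Col18a1 window holds GC box letters only.

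The genes that process, bind and degrade collagen were read from 4 lists. Of 20 measured genes of folding and modification, 17 were lower and 1 higher at P5, and again at P10, against E15.5, and 4 were lower at P10 against P5. Of all genes, 17.7% were lower and 17.9% higher at P5 against E15.5, 18.6% lower and 20.1% higher at P10 against E15.5, and 2.89% lower at P10 against P5, and the counts of all 4 lists stand beside these shares. The median difference of the folding list was -1.21 at P5 and -1.59 at P10 from E15.5. P4ha3, a prolyl hydroxylase subunit, differed by -2.90 ± 0.14 at P5 (adjusted p = 1.47e-06) and by -3.12 ± 0.14 at P10 (adjusted p = 6.35e-07). Fkbp14, a prolyl isomerase of the endoplasmic reticulum, differed by -2.45 ± 0.14 at P5. Serpinh1, the collagen chaperone HSP47, had means of 10.55 ± 0.17, 9.32 ± 0.038 and 8.54 ± 0.073 at E15.5, P5 and P10 and differed by -2.01 ± 0.088 at P10 from E15.5 (adjusted p = 5.09e-07). Tmem38b, an ion channel of the endoplasmic reticulum needed for collagen modification, was the gene that was higher, by 1.36 ± 0.23 at P5 and 1.04 ± 0.23 at P10.

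Trimming and cross-linking genes were lower in 6 of 11 cases at P5 and in 8 of 11 at P10 against E15.5, and in 4 of 11 at P10 against P5. Lox, the lysyl oxidase that starts cross-links, had means of 8.84 ± 0.13, 7.67 ± 0.15 and 6.48 ± 0.11 at E15.5, P5 and P10, and the difference at P10 from E15.5 was -2.37 ± 0.10 (adjusted p = 5.02e-07). Pcolce, an enhancer of propeptide cleavage, differed by -1.59 ± 0.15 at P5 and -2.43 ± 0.15 at P10. Its relative Pcolce2 differed by -2.07 ± 0.34 at P10 against P5 (adjusted p = 0.0124).

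Of 9 receptor genes, 7 were lower at P5 and 7 at P10 against E15.5, and 2 at P10 against P5. Itgb1, the beta subunit shared by collagen-binding integrins, differed by -1.70 ± 0.12 at P5 and -2.62 ± 0.12 at P10 (adjusted p = 7.58e-07). Ddr2, a receptor kinase for fibrillar collagen, differed by -1.51 ± 0.19 at P5. Of 10 genes of degradation and its inhibitors, 4 were lower at P5, and 5 were lower and 1 higher at P10, against E15.5, and 4 were lower at P10 against P5. Mmp14, a membrane-bound collagenase, differed by -1.10 ± 0.087 at P5 and -2.03 ± 0.087 at P10, and the inhibitor gene Timp2 by -2.60 ± 0.11 at P10 from E15.5 (adjusted p = 4.74e-07). Mmp9, a gelatinase, was higher by 0.36 ± 0.076 at P10 (adjusted p = 0.00523). The lists cover both making and breaking down of collagen, and their medians were negative in all 3 comparisons.

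**Figure D5:**
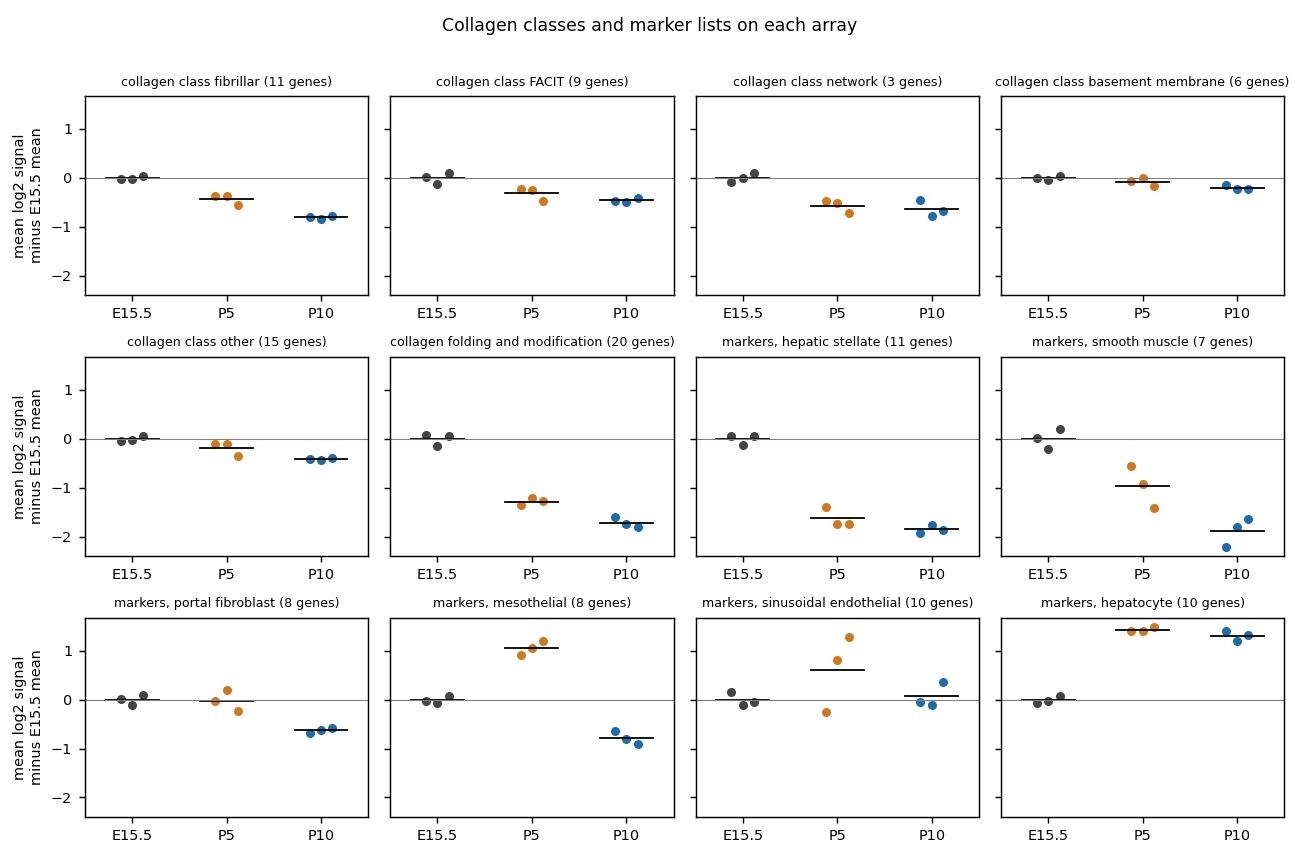
Mean log2 signal of a gene list on each array minus its mean at E15.5 (points, with stage means as bars, n = 3), for the 5 collagen classes, the folding and modification genes and 6 marker lists. Fibrillar collagens and smooth muscle markers fall in steps. Folding genes and stellate markers fall mostly by P5 (stellate means 9.44, 7.81 and 7.59 at E15.5, P5 and P10). Mesothelial markers peak at P5, and endothelial markers scatter between P5 arrays. The mean of the hepatocyte markers lies above E15.5 at P5 and P10, and is higher at P5 (12.52, against 12.39 at P10). Single hepatocyte markers went both ways, with median differences from E15.5 of 0.37 and 0.173.

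Markers of other stromal, liver and blood cells shifted over the same stages. The mean over 4 megakaryocyte markers was 7.11 to 7.97 at E15.5, 5.82 to 5.99 at P5 and 5.86 to 6.06 at P10, with 3 lower at each postnatal stage against E15.5. Pf4 and Ppbp, genes of platelet chemokines, differed by -2.72 ± 0.40 and -2.69 ± 0.30 at P5. The mean over 5 erythroid markers was 6.75 to 7.29 at E15.5, 6.61 to 6.64 at P5 and 6.66 to 6.89 at P10, with 3 lower at P5 and 3 lower and 1 higher at P10 against E15.5. The mean over 7 smooth muscle markers was 9.0 to 9.42 at E15.5, 7.81 to 8.67 at P5 and 7.01 to 7.57 at P10, with 3 lower at P5 and 5 lower at P10 against E15.5. Des, which the stellate list also holds, was among the lower ones at both stages. The mean over 8 portal fibroblast markers was 7.90 to 8.09, 7.76 to 8.20 and 7.31 to 7.43 at E15.5, P5 and P10, with 2 higher and 3 lower at P5 and 1 higher and 3 lower at P10 against E15.5. The higher ones were Eln and Elf1 at P5 and Elf1 alone at P10. The mean over 10 hepatocyte markers was 11.03 to 11.16 at E15.5, 12.49 to 12.57 at P5 and 12.28 to 12.50 at P10, with 7 higher and 1 lower at P5 and 5 higher and 1 lower at P10 against E15.5. Single hepatocyte markers differed by -0.44 to 5.98 at P5 and by -2.58 to 6.62 at P10. Their median differences were 0.37 and 0.173, so a few large rises weigh on the mean. The mean over 7 proliferation genes was 9.46 to 9.72 at E15.5, 8.08 to 8.77 at P5 and 8.65 to 8.90 at P10. Whether these shifts took part in the collagen differences was not tested.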

How the data were processed

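The deposited values are log2 signals per probe set that the authors made with RMA, which corrects background, quantile-normalises probes and summarises them, per the submitters' processing notes. The notes list Affymetrix Expression Console and, beside it, Transcriptome Analysis Console 2.0. A genome build for the probe annotation was not given in the sources used here. Of 35556 probe sets, 21789 had 1 gene symbol, 1621 had several and 12146 were not listed, and 21698 matched a current symbol through Entrez identifiers. Each of 19938 genes was represented by the probe set of highest mean signal, a choice that applied to 2 collagen genes, Col6a5 and Col6a6.

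All genes and 9 arrays entered 1 linear model of stage (R 4.3.3, limma 3.58.1, statmod 1.5.0), with 6 residual degrees of freedom, 2.22 prior ones, 2-sided moderated tests, Benjamini-Hochberg adjustment over all genes and no filter on low values. The script was tested on simulated data. Arrays of equal number in different stages were not alike (Pearson r of residuals -0.079 to 0.069, 0 of 9 pairs over 0.1), so they were not paired. The number of arrays limits the precision. Alternatives were 3 scalings, a filter and a floor at percentile 30, other probe set rules, a trended robust fit, fits of 2 stages, a replicate block and the omission of each array. Collagen genes, classes, gene and marker lists were chosen with earlier results of these data known, and the rule was to account for all 44 collagen genes, to describe those called and to name at most 2 called genes per list and direction. Figures used matplotlib 3.10.9 under Python 3.11.15. Gene coordinates entered no test, and promoter coordinates are those of the RefSeq promoter table.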

Additional observations from a re-analysis of the deposited data

Results flagged for a closer look

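For 8 collagen genes the change from P5 to P10 differed from the change from E15.5 to P5 by the test of the difference itself in limma, adjusted over all genes, where 16.6% of all genes were called. The intervals differ in length and share the P5 arrays, so a deviation of these arrays enters both with opposite sign. The difference was -1.25 for Col18a1 (adjusted p = 0.00361), -0.70 for Col15a1 (adjusted p = 0.00452) and -0.77 for Col6a6 (adjusted p = 0.0318). In these genes the P5 mean was the highest of the stages, and all 3 P10 arrays lay below all 3 P5 arrays. Col6a6 lost the call with quantile normalisation, the other probe set rules, the replicate block and without array 1 or 2 of any stage. Col18a1 and Col15a1 kept it in each of these settings.

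The difference was 1.48 for Col8a1 (adjusted p = 0.0135), 1.17 for Col14a1 (adjusted p = 0.0466), 0.97 for Col25a1 (adjusted p = 0.0179), 0.64 for Col11a1 (adjusted p = 0.0287) and 0.52 for Col24a1 (adjusted p = 0.0497). In these genes all 3 P5 arrays lay below all 3 E15.5 arrays, and P10 minus P5 was not called. Without P5 array 3 only Col8a1 of these kept the call, and without P5 array 1 or 2 only Col8a1 and Col25a1 did. Col14a1, Col11a1 and Col24a1 each lost it in further settings. With array 1 as the sole P5 array, 0 of these 5 and 1 of the 3 negative values were called.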

How the results depend on the processing

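Of 60 values of called genes in the 3 comparisons, 42 were called, 31 of these stayed called in all 20 alternatives, 11 lost the call in at least 1, 6 others gained it in at least 1, and 0 changed sign while called. Genes lower at P10 against E15.5 numbered 16 to 18 throughout. Genes higher at P10 against E15.5 (1) became 2 with quantile normalisation, a floor, fits of 2 stages or P5 array 1 as the sole P5 array, 3 with centring on the median or on ribosomal genes, 0 with the filter or the trended robust fit, and 0 to 2 when 1 array was left out. Genes higher at P5 (3) became 3 to 5 when 1 array was left out, and genes lower at P5 (16) became 10 with P5 array 1 alone. Genes lower at P10 against P5 (6) became 3 with quantile normalisation and 3 to 7 when 1 array was left out.

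Positive differences between intervals (5) became 3 with ribosomal centring, 3 with the replicate block and 1 to 5 when 1 array was left out. Negative ones (3) became 2 with quantile normalisation, the other probe set rules or the replicate block. They became 4 with the floor and 2 to 4 when 1 array was left out. With the replicate block, which the check of pairing did not call for, genes lower at P10 against P5 were 4, since Col18a1 (adjusted p = 0.0528) and Col6a6 (adjusted p = 0.0757) lost the call, and the counts against E15.5 were 16 lower at both stages with 3 and 1 higher. The network median at P5 (-0.105) ranged from -0.228 to 0.019 when 1 array was left out and was 0.03 with P5 array 1 alone. The median of other collagens at P5 (0.012) ranged from -0.065 to 0.135. The basement membrane median was 0.092 at P5 and -0.018 at P10 with the multiplexins counted in it, against -0.016 and -0.089 without them, and at P10 was -0.042 with quantile normalisation, 0.006 with centring on all genes and -0.01 with ribosomal centring. The median of other collagens at P10 (-0.042) was 0.032, 0.053 and 0.037 under these scalings and -0.166 without the multiplexins. Scalings moved the median of all genes by at most 0.096. The cause of each change was not tested. Ties between arrays, in 25 of 44 collagen genes, lower the SD, and no detection call was used.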
